A study of Mus musculus with 6 samples.

Results

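Gart is the purine synthesis gene that lies in the extra chromosome 16 segment of Ts1Cje cells, and it is described here with 9 other enzymes of purine synthesis and salvage that lie on other chromosomes. The 10 genes are Gart, Ppat, Pfas, Paics, Adsl, Atic, Impdh1, Impdh2, Gmps and Hprt. They were taken by gene symbol from the deposited table of 55487 genes. All 10 were found, and all 10 were expressed enough to be tested among 13821 genes. The RNA came from primitive macrophages grown for 12 days from mouse embryonic stem cells with growth factors and cytokines (activin A, BMP-4, FGF2 and VEGF, then the blood factors IL-3, SCF and M-CSF among them). Primitive macrophages are the macrophages of the early embryo, from which microglia of the brain derive. The 3 Ts1Cje libraries came from stem cells of Ts1Cje mice, a Down syndrome model with an extra copy of the distal part of chromosome 16, from beyond Sod1 to Zbtb21. The 3 wild-type libraries came from stem cells of wild-type mice under the same culture. The labels number lots and do not say whether a lot is a separate stem cell line or a separate differentiation, so a p-value reflects the spread among these 6 samples alone, part of which may be technical. The study was designed around a shortage of microglia in Ts1Cje embryos, and the genotypes are compared here in RNA of the precursor cells.

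Purine nucleotides are built stepwise on a ribose phosphate, PRPP, until the ring of inosine monophosphate (IMP) is closed. Ppat commits PRPP to the pathway, Gart carries several later steps on one trifunctional protein, Pfas, Paics and Adsl continue the chain, and Atic closes the ring. IMP then goes to GMP through the IMP dehydrogenases Impdh1 and Impdh2 and through Gmps, or to AMP through a branch that uses Adsl again. Hprt recycles hypoxanthine and guanine without new synthesis. Dividing cells draw heavily on the synthesis route, while many resting cells rely on salvage.

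Gart RNA was higher in each Ts1Cje library than in any wild-type library, while the 9 other enzymes had no common direction. Gart had a fold of 1.70 in Ts1Cje over wild-type, against 1.5 for 3 copies over a pair. Of the other 9 genes, 3 had a positive and 6 a negative log2 fold change, with a median of -0.07, where the median over all 13821 genes tested was -0.01 and 49.2% of them were positive. None of the 10 passed over all genes tested by edgeR quasi-likelihood with Benjamini-Hochberg adjustment, where the threshold was 0.05 and 1 gene, 0.00724% of those tested, passed. At an unadjusted p under 0.05 there were 2 members, Gart and Adsl, both higher in Ts1Cje, against 5.79% of all genes tested (2.99% higher and 2.8% lower). Gart had an unadjusted p under 0.05 in each of 17 alternative fits and Adsl in 7 of 17. Paics had one in 1, without wild-type replicate 1, where Adsl did not. The fits counted for Adsl include that without wild-type replicate 3, where 16.1% of genes tested were under 0.05 by edgeR. Groups did not overlap for 3 of the 10, all higher in Ts1Cje (Gart, Ppat and Adsl), and for 0 lower, against 6.38% of all genes tested for higher and 5.72% for lower. By DESeq2 1 member, Gart, passed, against 0.405% of genes tested.

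**Figure D1:**
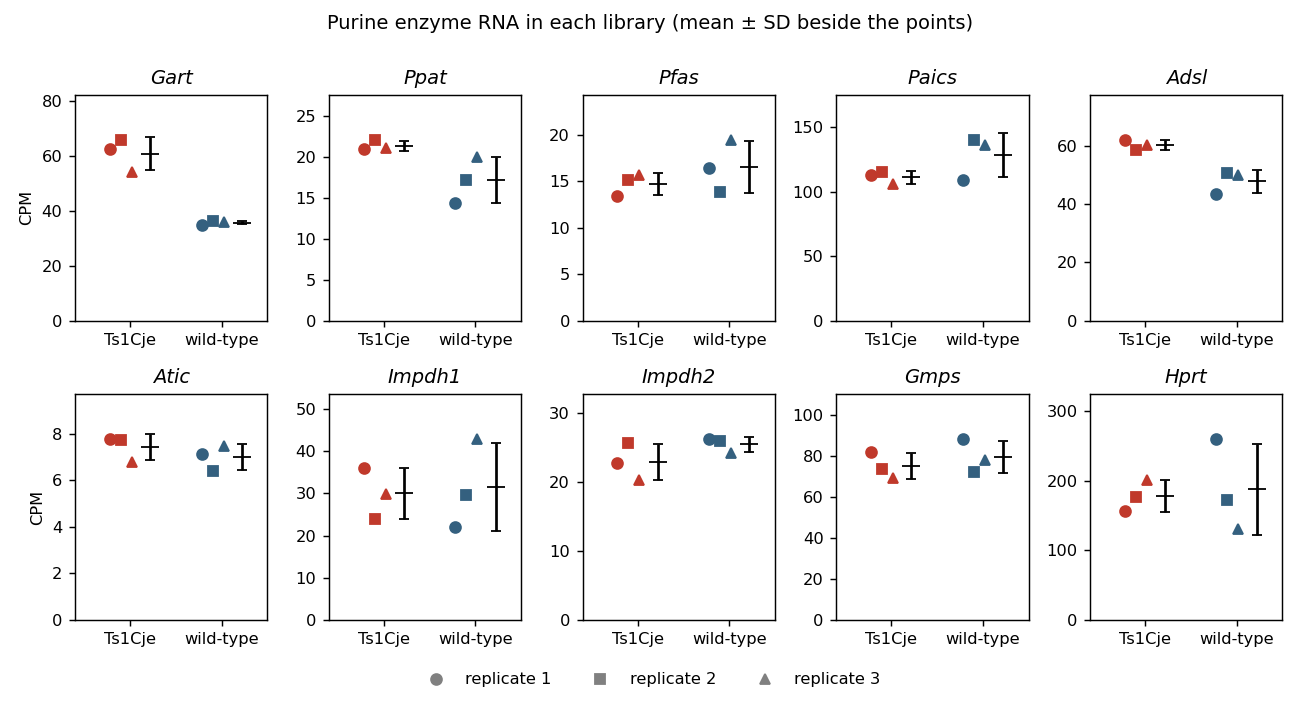
CPM (counts scaled to the library total times its TMM factor) of each of the 10 purine enzymes in the 3 Ts1Cje libraries (left, red) and the 3 wild-type libraries (right, blue), with points for libraries and bars for mean ± SD. Groups do not overlap for Gart, Ppat and Adsl.

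The libraries held 26146044 to 32658148 counts in Ts1Cje and 25484294 to 26372632 counts in wild-type. Macrophage genes were expressed at uneven levels, with the summed CPM of 15 markers, Csf1r, Spi1 and Adgre1 among them, at 12980 to 22580 in Ts1Cje and 11370 to 23040 in wild-type libraries. Over the 6 libraries Lyz2 alone had 2298 to 11560 CPM, while Aif1 had 13.6 to 40.3 and Cx3cr1 4.535 to 81.7. C1qa, the 1 marker with an unadjusted p under 0.05, averaged 80.2 CPM in Ts1Cje and 243 CPM in wild-type. Its log2 fold change was -1.60 ± 0.55 (SE), with overlapping groups, an unadjusted p of 0.0212 and an adjusted p of 0.792 by edgeR. Pluripotency markers summed to 14.5 to 32.3 CPM in Ts1Cje and 18.4 to 102 CPM in wild-type libraries, with Sox2 and Esrrb at 0 in all 6. Wild-type replicate 1 stood apart on the first principal component (37.8% of variance), at 88.2 against -38.7 to 18.7 in the other 5. It also had the lowest RNA of dividing cells. The median of 25 G2/M genes, on log2 CPM relative to the wild-type mean, was 1.06, 0.72 and 0.22 in Ts1Cje replicates 1 to 3, and -1.97, 1.01 and 0.99 in wild-type replicates 1 to 3. For 26 G1/S genes it was 0.90, 0.72 and 0.04 in Ts1Cje and -0.84, 0.18 and 0.72 in wild-type. Wild-type replicate 1 also had the highest summed CPM of cardiomyocyte markers, 74.08 against 2.08 to 14.97 in the other 5. Its sums were highest for epithelial (38.6 against 1.757 to 17.54) and neutrophil markers (112.5 against 17.47 to 53.46). Erythroid markers were highest there too (78.33 against 37.75 to 66.97). Endothelial (16.83) and megakaryocyte and mast markers were lowest there, and mesenchymal markers were highest in Ts1Cje replicate 2 (80.55). In bulk RNA, fewer cells of a type and less RNA per cell cannot be told apart.

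Gart (ENSMUSG00000022962) lies at chr16:91621186-91646952 on the minus strand of mm10, and its longest GENCODE M21 transcript has 22 exons. It had 62.5, 65.6 and 54.0 CPM in Ts1Cje replicates 1 to 3, against 34.9, 36.2 and 36.0 CPM in wild-type replicates 1 to 3. The wild-type values were close together, and the lowest Ts1Cje library, replicate 3, lay well above all of them. Gart averaged 60.7 ± 6.02 CPM in Ts1Cje and 35.7 ± 0.678 CPM in wild-type libraries (SD, n = 3 each). The counts behind these values were 2111, 1762 and 1583 in Ts1Cje and 863, 968 and 957 in wild-type. The log2 fold change was 0.77 ± 0.14 (SE), with a 95% interval of 0.44 to 1.09 that contains the 0.58 of 3 copies over a pair. By edgeR the unadjusted p was 0.000711, rank 5 of all genes tested, and the adjusted p was 0.792; by DESeq2 the adjusted p was 0.00657. In folds, the edgeR interval was 1.36 to 2.13. An annotated antisense gene, Gm15964, shares 1014 bp of exon with Gart, which is 19.7% of Gart's exon length. It had 42, 8 and 1 counts in Ts1Cje and 6, 1 and 2 counts in wild-type libraries, few against those of Gart. The sources used here do not give the strand setting of the counting, so reads in that stretch cannot be told apart.

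The region around the start of Gart is shown because its RNA differed most of the 10. From RefSeq (GRCm38.p6), 250 bases before to 50 after the start, chr16:91646923-91647222, minus strand, read 5′ to 3′ along the gene; capitals mark a CCAAT box (CCAAT or ATTGG).
Gart: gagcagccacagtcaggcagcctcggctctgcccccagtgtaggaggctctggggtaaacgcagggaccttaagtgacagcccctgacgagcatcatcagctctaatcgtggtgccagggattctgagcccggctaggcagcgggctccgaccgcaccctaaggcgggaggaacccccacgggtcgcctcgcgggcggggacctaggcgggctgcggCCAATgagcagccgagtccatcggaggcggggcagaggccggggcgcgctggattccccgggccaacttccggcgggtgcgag
The window holds 1 CCAAT box, 33 bases before the start, and no E-box (CACGTG, the letters that MYC and its relatives bind). Of 32851 such windows in the RefSeq table, 37.4% hold a CCAAT box on either strand and 7.15% an E-box.

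Gart was in the upper part of the genes that share its extra copy. Of 184 annotated genes between Sod1 and the end of Zbtb21, 56 were tested, and their median log2 fold change was 0.62 with quartiles of 0.38 and 0.82. Gart ranked 18 by log2 fold change and 2 by p among the 56. Library by library, relative to the wild-type mean, Gart stood at 0.81, 0.88 and 0.60 in Ts1Cje and -0.03, 0.02 and 0.01 in wild-type on the log2 scale. The segment median was 0.64, 0.59 and 0.56 in Ts1Cje and 0.04, -0.09 and 0.00 in wild-type. Gart therefore lay above the segment median in each Ts1Cje library, by least in replicate 3. Groups did not overlap, higher in Ts1Cje, for 31 of the 56 segment genes, against 6.38% of all genes tested. Of 9 listed neighbours, all tested and inside the segment, 8 had a positive and 1 a negative log2 fold change, with a median of 0.57. Among these neighbours 7 had groups that did not overlap, all higher in Ts1Cje. None of them passed over all genes tested by edgeR, and DESeq2 called 1, the interferon gamma receptor gene Ifngr2 (adjusted p = 0.0269), which is named after its values were seen. Son, a splicing cofactor on the other strand whose gene starts beside that of Gart, had 325, 349 and 306 CPM in Ts1Cje and 286, 209 and 208 CPM in wild-type libraries, a log2 fold change of 0.48 ± 0.17 (SE). Donson, a replication fork protein, had 0.78 ± 0.29, which became 0.46 without Ts1Cje replicate 1, and Tmem50b, a membrane protein, 0.56 ± 0.17. Dnajc28, a DnaJ domain gene at 2.40 to 4.02 CPM in Ts1Cje and 2.67 to 8.62 CPM in wild-type libraries, had -0.50 ± 0.52, which became 0.26 without wild-type replicate 1.

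**Figure D2:**
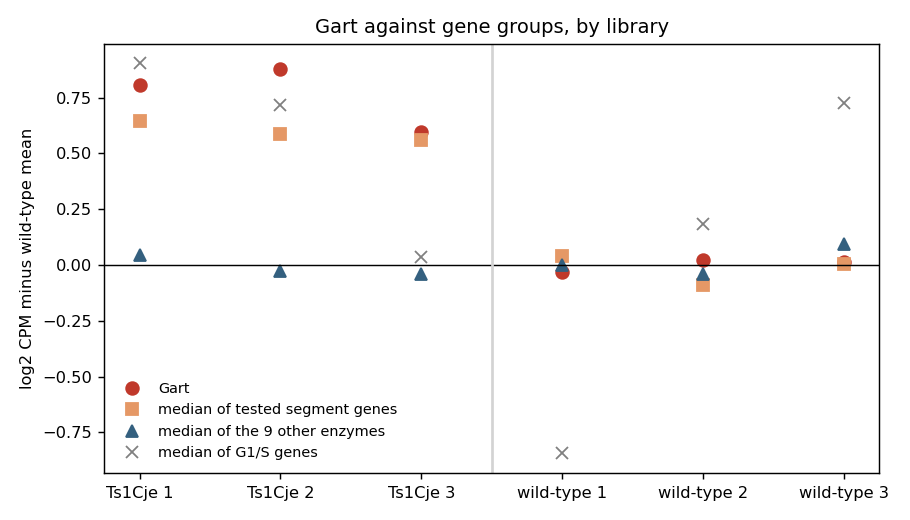
Log2 CPM minus the wild-type mean in each library for Gart, the median of the 56 tested segment genes, the median of the 9 other purine enzymes and the median of the G1/S genes. Gart and the segment median are above 0.5 in all 3 Ts1Cje libraries, and the median of the 9 other enzymes stays within 0.1 of 0 in all 6.

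Ppat, the amidotransferase that commits PRPP to purine synthesis, had higher CPM in the Ts1Cje libraries without passing the test. It had 21.0, 22.1 and 21.1 CPM in Ts1Cje and 14.4, 17.2 and 20.0 CPM in wild-type replicates 1 to 3. The Ts1Cje libraries were nearly equal and just above the highest wild-type library, while the wild-type libraries were spread, with replicate 1 lowest. On TPM (scaled by gene length) the groups overlapped, at 13.2 to 15.4 in Ts1Cje and 9.49 to 13.8 in wild-type. The log2 fold change was 0.32 ± 0.19 (SE), with a 95% interval of -0.12 to 0.75 and an adjusted p of 0.803 by edgeR. Without wild-type replicate 1, the library low in cell cycle RNA and highest in cardiomyocyte, epithelial and neutrophil markers, it was 0.19.

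Paics, which carries a carboxylase and a ligase step of the pathway, had values in the other direction. It had 113, 115 and 106 CPM in Ts1Cje and 109, 140 and 136 CPM in wild-type replicates 1 to 3. Wild-type replicate 1 lay among the Ts1Cje libraries, and wild-type replicates 2 and 3 lay above all of them. The log2 fold change was -0.21 ± 0.14 (SE), with a 95% interval of -0.54 to 0.12 (adjusted p = 0.813, edgeR). Without wild-type replicate 1 it was -0.32, the groups no longer overlapped and the unadjusted p was 0.0458, with an adjusted p of 0.989 by edgeR. In that fit 9.67% of genes tested did not overlap and were lower in Ts1Cje, and 4.78% had an unadjusted p under 0.05 in either direction. Paics pseudogenes in the annotation, Gm4797 and Gm19241, had 0 to 4 counts per library.

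Ppat and Paics sit head to head on chromosome 5 and their 5′ ends overlap by 272 bp of exon on opposite strands, where reads cannot be told apart without strand. Ppat lies at chr5:76913249-76951578 on the minus strand and Paics at chr5:76951307-76967509 on the plus strand. The windows around both RefSeq starts (GRCm38.p6) are shown because these neighbours had estimates of opposite sign. They are chr5:76951529-76951828 on the minus strand for Ppat and chr5:76951052-76951351 on the plus strand for Paics; capitals mark E-box and CCAAT box letters.
Ppat: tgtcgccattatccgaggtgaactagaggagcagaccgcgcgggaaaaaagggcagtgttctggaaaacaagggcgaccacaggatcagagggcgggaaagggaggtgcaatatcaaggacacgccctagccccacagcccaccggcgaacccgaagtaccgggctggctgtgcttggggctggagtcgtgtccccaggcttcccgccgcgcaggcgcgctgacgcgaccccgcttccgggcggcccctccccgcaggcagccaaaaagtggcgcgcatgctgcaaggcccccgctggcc
Paics: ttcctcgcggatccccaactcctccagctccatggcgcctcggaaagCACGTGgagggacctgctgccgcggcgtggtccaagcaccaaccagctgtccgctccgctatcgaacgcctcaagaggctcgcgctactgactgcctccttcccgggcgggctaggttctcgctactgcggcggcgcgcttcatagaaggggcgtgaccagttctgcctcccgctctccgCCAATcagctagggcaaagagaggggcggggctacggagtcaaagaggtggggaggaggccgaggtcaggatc
The Paics window holds 1 E-box, 203 bases before the start, and 1 CCAAT box, 23 bases before it, and the Ppat window holds neither. Within a library the ratio of the pair does not depend on library scaling. Ppat counts were 18.6%, 19.2% and 20.0% of Paics counts in Ts1Cje, against 13.2%, 12.3% and 14.6% in wild-type replicates 1 to 3. The ratio averaged 19.3 ± 0.702% in Ts1Cje and 13.4 ± 1.16% in wild-type libraries (SD, n = 3 each), and the genotypes did not overlap. This pair was set side by side after the values were seen, and no test was made of the ratio.

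Adsl, which acts both in the IMP chain and in the branch to AMP, was the second member with an unadjusted p under 0.05. It lies at chr15:80948490-80970946 on the plus strand, outside the segment. It had 62.0, 58.5 and 60.2 CPM in Ts1Cje and 43.3, 50.5 and 49.9 CPM in wild-type replicates 1 to 3, with all Ts1Cje libraries above all wild-type libraries. The averages were 60.2 ± 1.74 CPM in Ts1Cje and 47.9 ± 3.98 CPM in wild-type (SD, n = 3 each). The log2 fold change was 0.33 ± 0.13 (SE), with a 95% interval of 0.02 to 0.64. The unadjusted p was 0.0406 and the adjusted p 0.792 by edgeR, so it did not pass. The unadjusted p was not under 0.05 in 10 of 17 alternative fits. By edgeR it was 0.058 with upper-quartile factors and 0.0756 with no filter on low counts. Without wild-type replicate 1, the lowest library, the log2 fold change was 0.25 and the unadjusted p 0.114 by edgeR. The window around the RefSeq start, chr15:80948240-80948539 on the plus strand (GRCm38.p6), is shown because Adsl is the other member with an unadjusted p under 0.05; it holds no E-box and no CCAAT box, and so no capitals.
Adsl: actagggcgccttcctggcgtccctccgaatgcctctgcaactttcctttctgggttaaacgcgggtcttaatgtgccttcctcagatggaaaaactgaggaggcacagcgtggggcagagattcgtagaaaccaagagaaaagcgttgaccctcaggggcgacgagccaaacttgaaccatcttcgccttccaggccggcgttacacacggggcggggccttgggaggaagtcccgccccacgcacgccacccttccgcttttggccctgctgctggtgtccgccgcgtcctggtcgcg
Among the member windows searched, which did not include Pfas, those of Paics, Atic and Impdh2 held an E-box. These 3 genes had log2 fold changes of -0.21, 0.08 and -0.15.

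For Pfas and Atic, the remaining enzymes of the IMP chain, the genotypes overlapped. Pfas, the amidotransferase that follows the first steps of Gart, had 13.4, 15.1 and 15.7 CPM in Ts1Cje and 16.4, 13.8 and 19.4 CPM in wild-type libraries, which overlap. Its log2 fold change was -0.17 ± 0.20 (SE; 95% interval -0.64 to 0.30; adjusted p = 0.882, edgeR), and ran from -0.29 without wild-type replicate 2 to -0.03 without wild-type replicate 3. Atic, the bifunctional enzyme that closes the ring, had 7.75, 7.71 and 6.79 CPM in Ts1Cje and 7.12, 6.39 and 7.48 CPM in wild-type libraries. It was the lowest of the 10 in level and the steadiest, with a highest library 1.21 times the lowest. Its log2 fold change was 0.08 ± 0.23 (95% interval -0.45 to 0.62; adjusted p = 0.950, edgeR), so a change as large as 1.5-fold up lies inside the interval. It ran from 0.01 without wild-type replicate 2 to 0.14 without wild-type replicate 3.

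The part of Gart in the RNA of the IMP chain was larger in each Ts1Cje library than in any wild-type library. Gart made up 18.3%, 18.8% and 16.8% of the summed TPM of Gart, Ppat, Pfas, Paics, Adsl and Atic in Ts1Cje, against 12.2%, 10.5% and 10.4% in wild-type replicates 1 to 3. The sum of the 6 was 205, 209 and 173 TPM in Ts1Cje and 162, 201 and 205 TPM in wild-type, so the groups overlapped in the total and not in the share of Gart. On log2 CPM, Gart minus the mean of the 9 other members was 0.72, 0.81 and 0.55 in Ts1Cje and -0.05, 0.01 and -0.12 in wild-type.

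**Figure D3:**
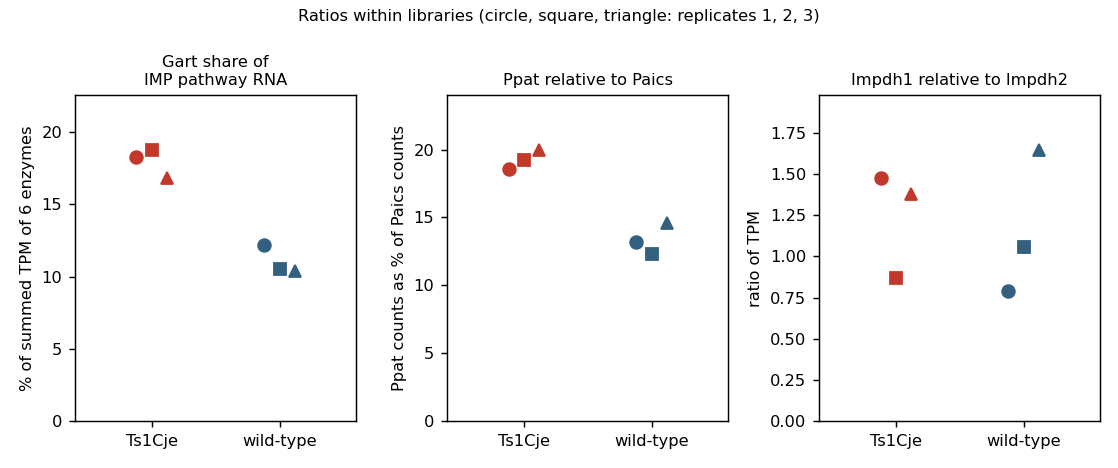
Ratios within each library in Ts1Cje (left of each panel) and wild-type: Gart as a percentage of the summed TPM of the 6 IMP pathway enzymes, Ppat counts as a percentage of Paics counts, and the TPM ratio of Impdh1 to Impdh2. The first and second do not overlap between genotypes, and the last does.

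In the guanine branch the genotypes overlapped for each of the 3 enzymes. Impdh1, an IMP dehydrogenase, varied widely within each genotype, with 36.1, 23.9 and 29.9 CPM in Ts1Cje and 22.1, 29.5 and 42.8 CPM in wild-type replicates 1 to 3. Its log2 fold change of -0.07 ± 0.27 (95% interval -0.71 to 0.56; adjusted p = 0.968, edgeR) was 0.22 without wild-type replicate 3 and -0.28 without wild-type replicate 1. Its level was lowest in wild-type replicate 1 and highest in wild-type replicate 3. The libraries' G1/S and G2/M medians given above also differ between those replicates; their part in the Impdh1 values was not tested.

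Impdh2, the second IMP dehydrogenase and the form usually linked to proliferation, had 22.8, 25.7 and 20.3 CPM in Ts1Cje and 26.2, 26.0 and 24.2 CPM in wild-type libraries. These overlap, and the log2 fold change was -0.15 ± 0.16 (95% interval -0.53 to 0.23; adjusted p = 0.865, edgeR). It was -0.24 without Ts1Cje replicate 2 and -0.08 without Ts1Cje replicate 3. Impdh2 shares 48 bp of exon with Ndufaf3 on the other strand, and its value is uncertain because a processed pseudogene, Impdh2-ps on chromosome 8, is 99.7% identical over 1545 bp, 83.2% of the longest Impdh2 transcript. Impdh2-ps had 361, 231 and 206 counts in Ts1Cje and 255, 311 and 297 counts in wild-type, beside 770, 689 and 596 counts of Impdh2 in Ts1Cje and 648, 695 and 644 in wild-type. With both summed, an alternative added after seeing the data, the values were 33.5, 34.3 and 27.4 CPM in Ts1Cje and 36.5, 37.6 and 35.4 CPM in wild-type. All 3 Ts1Cje libraries then lay below all 3 wild-type libraries, at a log2 fold change of -0.20 ± 0.15 (SE) and an unadjusted p of 0.222 by edgeR. Before summing, 5.72% of all genes tested were lower in Ts1Cje without overlap. The TPM ratio of Impdh1 to Impdh2 was 1.48, 0.869 and 1.38 in Ts1Cje and 0.789, 1.06 and 1.65 in wild-type replicates 1 to 3, so the more abundant form differed between libraries of the same genotype.

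Gmps, which turns XMP into GMP, had 81.6, 73.6 and 69.2 CPM in Ts1Cje and 87.9, 72.2 and 77.9 CPM in wild-type libraries. These ranges overlap, with a log2 fold change of -0.09 ± 0.14 (95% interval -0.41 to 0.24; adjusted p = 0.916, edgeR) that ran from -0.16 without wild-type replicate 2 to -0.01 without wild-type replicate 1.

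Hprt, the salvage enzyme, is on the X chromosome (chrX:52988137-53021659, plus strand) and had the highest level of the 10. It had 156, 177 and 202 CPM in Ts1Cje and 260, 172 and 131 CPM in wild-type replicates 1 to 3. The wild-type libraries spanned the highest and the lowest value of all 6, with the Ts1Cje libraries between them. The log2 fold change was -0.07 ± 0.25 (SE), with a 95% interval of -0.66 to 0.51 and an adjusted p of 0.963 by edgeR. Without wild-type replicate 1 it was 0.23. Wild-type replicate 1, highest in Hprt, was the library lowest in the G1/S and G2/M medians; their part in its Hprt level was not tested.

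**Figure D4:**
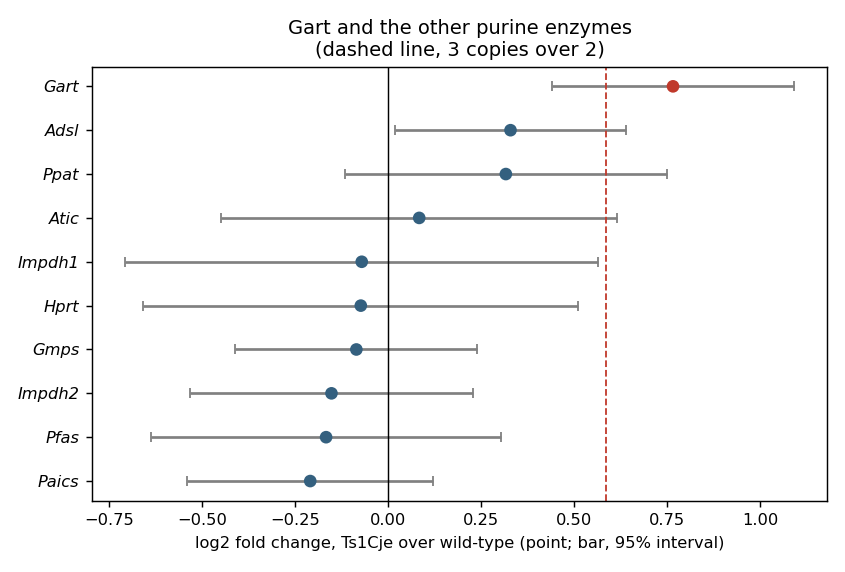
Log2 fold change of each member, Ts1Cje over wild-type, with its 95% interval from edgeR; the dashed line is the 0.58 of 3 copies over a pair. Gart is at 0.77 and the 9 other enzymes range from -0.21 to 0.33.

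The intervals limit the size of a rise in the 9 enzymes outside the segment. For 6 of them (Pfas, Paics, Impdh1, Impdh2, Gmps and Hprt) the 95% interval ended below 0.58, the log2 value of a 1.5-fold rise. For 3 (Ppat, Adsl and Atic) it reached that value. The intervals also limit the size of a fall. The lower ends were -0.71 for Impdh1, -0.66 for Hprt and -0.64 for Pfas, so a 1.5-fold fall lay inside these intervals. For Paics (-0.54), Impdh2 (-0.53), Atic (-0.45), Gmps (-0.41), Ppat (-0.12) and Adsl (0.02) the lower end stopped short of such a fall. The median over the 9 in each library, relative to the wild-type mean on log2 CPM, was 0.04, -0.03 and -0.04 in Ts1Cje and 0.00, -0.04 and 0.10 in wild-type replicates 1 to 3.

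Levels per gene length differed far more between enzymes than between genotypes. In TPM over the 6 libraries, Hprt ran from 311 to 588 with a median of 411, and Paics from 93.3 to 134 with a median of 112. Adsl, Gmps, Gart, Impdh1 and Impdh2 formed a middle group, with medians of 28.3, 28.7, 25.2, 26.1 and 24.5 TPM, in which each overlapped the next. Gart was in a different place in this group in each genotype, at 29.1 to 39.3 TPM in Ts1Cje and 19.8 to 21.3 TPM in wild-type libraries. Ppat (9.49 to 15.4 TPM), Pfas (5.22 to 7.46 TPM) and Atic (2.36 to 3.00 TPM) were the lowest and did not overlap each other. Thus the entry enzyme and the closing enzyme of the chain were among the least abundant RNAs of the 10 per length, and Paics the most abundant of the chain. The distances between genes depend on the lengths used, which follow all annotated exons of a gene, such as 7985 bp for Atic, 7933 bp for Pfas and 1289 bp for Hprt. In CPM, which is not scaled by length, Atic was also the lowest of the 10 and Hprt the highest.

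**Figure D5:**
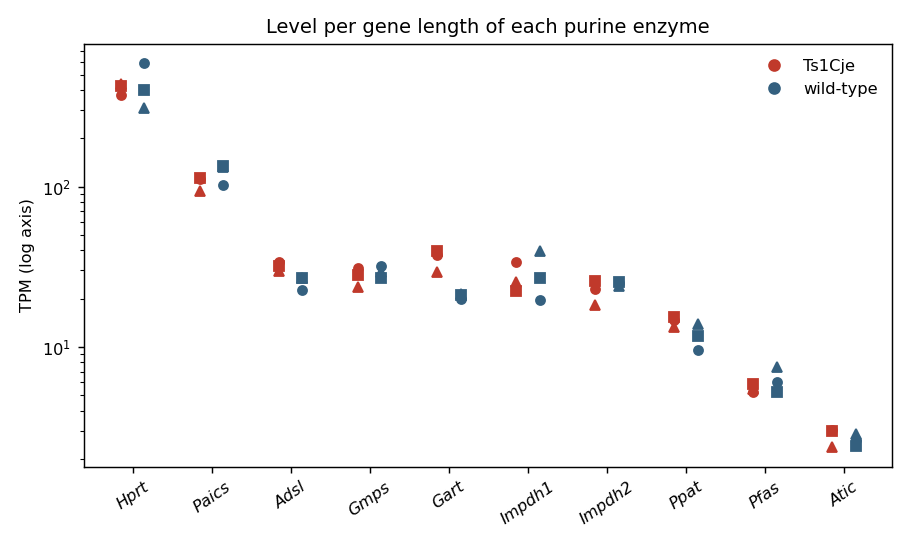
TPM of each enzyme on a log axis, ordered by mean level, with Ts1Cje libraries in red (left) and wild-type libraries in blue (right) and the replicate number as the marker shape. Hprt is highest and Atic lowest, and Gart is the member whose 2 genotypes stand furthest apart.

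The wider network of nucleotide supply was measured through 7 lists with 129 genes, of which 113 were tested. Over all genes tested by edgeR 0 rose and 0 fell, and DESeq2 called 0. At an unadjusted p under 0.05 there were 5 higher and 3 lower in Ts1Cje, 7.08% of the 113 against 5.79% of all genes tested. Groups did not overlap for 10 higher and 4 lower of the 113, against 12.1% of all genes tested in either direction. In the supply of PRPP, 10 of 13 tested genes were positive, with a median log2 fold change of 0.17. Rpe, an epimerase of the pentose phosphate pathway, had 83.9, 72.9 and 84.4 CPM in Ts1Cje and 60.5, 63.1 and 66.8 CPM in wild-type, a log2 fold change of 0.34 ± 0.13 (SE). Prpsap1, a protein that associates with PRPP synthetase, had 0.31 ± 0.15, and G6pdx, the entry enzyme of the same pathway, 0.38 ± 0.30. The G6pdx value moved with the wild-type library left out, at 0.13 without replicate 1 and 0.83 without replicate 3.

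The folate route, which gives formyl groups to Gart and Atic, had 12 positive and 13 negative values in 25 tested genes, with a median of -0.01. Among its smallest p-values was that of Gcsh, the carrier protein of the glycine cleavage system, with 88.6, 83.0 and 85.8 CPM in Ts1Cje and 36.0, 45.3 and 69.4 CPM in wild-type, a log2 fold change of 0.77 ± 0.24 (SE). Shmt1, the cytosolic serine hydroxymethyltransferase, had 0.98 ± 0.41, with overlapping groups. With each library left out it ran from 0.67 without Ts1Cje replicate 2 to 1.48 without wild-type replicate 3. Both had an adjusted p of 0.792 by edgeR. Gcsh was lowest in wild-type replicate 1, and its groups did not overlap.

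In the AMP and GMP branch with the nucleotide kinases, 12 of 18 tested genes were positive (median 0.11). Adssl1, an adenylosuccinate synthase of the step before Adsl in the AMP branch, was at 77.1 ± 18.0 CPM in Ts1Cje and 119 ± 36.3 CPM in wild-type libraries (SD, n = 3 each), a log2 fold change of -0.62 ± 0.26 (SE) with groups that did not overlap. Wild-type replicate 1, at 160 CPM, was the highest, and without it the value was -0.35 (unadjusted p = 0.146, edgeR). Nme6 and Nme7, of the nucleoside diphosphate kinase family, had 0.60 ± 0.27 and 0.50 ± 0.26; Nme6 was at 0.36 without wild-type replicate 1 and Nme7 at 0.33 without Ts1Cje replicate 1. Salvage, breakdown and transport genes had 9 positive and 11 negative values (median -0.02). Aprt, which salvages adenine as Hprt does guanine, had 229, 258 and 179 CPM in Ts1Cje and 130, 155 and 214 CPM in wild-type, a log2 fold change of 0.42 ± 0.22 (SE). Entpd1, an ectonucleotidase also known as CD39, had -0.26 ± 0.14 and Nt5c, a nucleotidase, 0.33 ± 0.22. Without wild-type replicate 1 Aprt was at 0.26 and Nt5c at 0.14, and without wild-type replicate 3 Aprt was at 0.64.

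Pyrimidine genes had 13 positive and 6 negative values (median 0.14), with the uridine kinase gene Uckl1 at -0.49 ± 0.16 (SE), Ctps, a CTP synthase, at 0.55 ± 0.31 and Ctps2, its paralog, at 0.24 ± 0.15. Ctps was at 0.28 without Ts1Cje replicate 1 and Ctps2 at 0.16 without wild-type replicate 2. Of deoxynucleotide genes 5 of 7 were positive (median 0.29), with Glrx, a glutaredoxin, at 0.67 ± 0.26, Txn1, a thioredoxin, at -0.28 ± 0.16 and Rrm2, a ribonucleotide reductase subunit, at 0.67 ± 0.53. Rrm2 had 18.8 CPM in wild-type replicate 1 and 75.6 to 139 CPM in the other 5 libraries, and its log2 fold change was 0.22 without that replicate, 0.42 without Ts1Cje replicate 1 and 1.16 without wild-type replicate 3. Glrx was at 0.41 without Ts1Cje replicate 1 and Txn1 at -0.16 without wild-type replicate 1. In the MYC network with Atf4, 6 of 11 tested genes were positive (median 0.06). Mxd4, an antagonist of MYC, had 12.3, 7.56 and 11.9 CPM in Ts1Cje and 18.9, 19.9 and 22.4 CPM in wild-type, with no overlap and a log2 fold change of -0.95 ± 0.24 (SE; unadjusted p = 0.00457, adjusted p = 0.792, edgeR). Mlx and Mxi1, of the same network, had 0.30 ± 0.17 and 0.33 ± 0.21, and were at 0.19 each without wild-type replicate 1; Mxi1 was at 0.56 without wild-type replicate 3.

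By the root mean square difference of centred log2 CPM over the 6 libraries, among 10787 genes averaging over 1 on that scale, the profiles nearest to Gart were those of Adap1 (0.102), Cnnm4 (0.102), Pak1 (0.112), Ifngr2 (0.121) and Paxbp1 (0.127). The median difference from Gart over all these genes was 0.466. Ifngr2 and Paxbp1 lie on chromosome 16 and the other 3 on chromosomes 5, 1 and 7. Among the members, Adsl (0.240) and Ppat (0.260) were nearest to Gart, and Impdh1 and Hprt (0.524 each) the farthest. Nearest to the mean profile of the 9 other members, which was almost flat, were Utp11 (0.0237), Htt (0.0272), Cops2 (0.0312), Ppp2r5d (0.0337) and Eif3m (0.0355), against a median of 0.264.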

How the data were processed

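RNA was sequenced from 6 libraries, made per the labels' protocols with a SMART-seq kit from total RNA. Per the submitters' processing notes FastQC 0.11.7, Trimmomatic 0.38, HISAT2 2.1.0 with mm10 and featureCounts 1.6.3 were used; the sources used here do not say how strand or multi-mapped reads were handled. Raw counts for each gene and TPM were deposited by the authors as separate tables, with 1 column per library. TPM values were checked for the 9151 genes with at least 100 counts in every library. Each was its gene's deposited count divided by a single length and rescaled per library.

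Genotypes were compared on the counts with edgeR 4.0.16 (R 4.3.3): filterByExpr (minimum count 10, minimum total 15), TMM factors, quasi-likelihood test, genotype as the only term, and Benjamini-Hochberg adjustment over 13821 genes. The standard error is the log2 fold change divided by the root of F, and the 95% interval uses the t distribution with the fit's degrees of freedom. CPM are scaled by total and TMM factor; a prior count of 2 was added for log2 CPM. Alternatives were RLE, upper-quartile and chromosome 16-free TMM factors, other filters, DESeq2 1.42.0, limma 3.58.1 (voom, and log2 TPM with pseudocounts of 1 and 0.1), a block for the lot number, and leaving out each library. The tests were also run on simulated data. Near-identical copies were sought with BLAST among GENCODE M21 transcripts. Reads carried no molecular identifiers, so the intervals cannot separate PCR copying from other spread between libraries.

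The members and lists were chosen with earlier results of these data known. Named are all 10 members, the up to 3 genes with the smallest p of each of 7 supply lists, Son, Donson, Dnajc28 and Tmem50b, and the 5 nearest profiles; 1 gene that this rule names is not reported here.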

Additional observations from a re-analysis of the deposited data

How the results depend on the processing

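The Gart log2 fold change was 0.71 to 0.84 with each library left out in turn and 0.73 to 0.77 under the other alternatives. It kept its side of the threshold except with DESeq2, where it passed at 0.76 (adjusted p = 0.00657, range over the alternatives 0.00657 to 0.99). DESeq2 called 56 genes and 1 member, and no filter gave 3 genes. With each library left out edgeR called 1 to 6 genes and 0 members, 6 without wild-type replicate 3. In that last fit 16.1% of genes tested had an unadjusted p under 0.05 by edgeR, against 5.79% with all 6 libraries. The median of the 9 other enzymes was -0.142 to -0.0145 with each library left out, lowest without wild-type replicate 2, and stayed within the spread between libraries under the other alternatives. Direction turned for Hprt, at 0.02 without Ts1Cje replicate 1 and 0.23 without wild-type replicate 1, for Impdh1, at 0.07 without Ts1Cje replicate 2 and 0.22 without wild-type replicate 3, and for Dnajc28, at 0.26 without wild-type replicate 1. Left-out values ran from -0.27 to 0.23 for Hprt, -0.28 to 0.22 for Impdh1 and -0.78 to 0.26 for Dnajc28. The cause was not tested. The labels do not say whether lot numbers pair the samples. Deviations from the group means correlated at -0.176, -0.0451 and -0.0612 in lots 1 to 3. With 3 libraries per genotype the deviations within a group are tied to each other, so these values cannot decide it. With the replicate block 0 genes passed, 634 had an unadjusted p under 0.05, Gart was at 0.76 and Adsl had an unadjusted p of 0.0902. Atic, at 171 to 262 counts per library, had the fewest counts of the members.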
